A study of Homo sapiens with 56 samples.

Results

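The unfolded protein response and the integrated stress response were followed through 34 genes in 2 high-grade serous ovarian cancer cell lines, PEO1 and PEO4, given estradiol or antiestrogens for 3 h. The genes were taken from a list of 35 symbols, and 34 of them had a probe set that the array annotation gave to that symbol alone; SESN2 was not analysed here. They were 34 of the 11963 genes measured, each read from its brightest such probe set over all 56 arrays. By role, 12 encode chaperones and folding enzymes of the endoplasmic reticulum, 5 belong to protein degradation and translocation there, 5 are stress sensors or transcription factors outside the ATF4 arm, and 12 belong to the integrated stress response and its ATF4 arm.

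PEO1 and PEO4 are established cell lines, and both were kept for 3 days without hormone, using charcoal-stripped serum and a medium that lacked phenol red, before any treatment. Each line then gave 7 groups of 4 arrays. Untreated cells were taken at 0 h, and the other groups were taken after 3 h with the ethanol vehicle, 1 nM estradiol (E2), 1 µM ICI (fulvestrant), 1 µM 4-hydroxytamoxifen (4OHT, written Tam in the PEO4 titles), ICI with E2, or 4OHT with E2. The design asks what E2 does through estrogen receptor alpha, and what a pair of antiestrogens of different structure do with and without it. All cells, the vehicle and 0 h cells included, had gone through the same hormone deprivation, and nothing in the labels says that the 4 arrays of a group came from separate cultures, so p-values measure the spread between these arrays, which may be technical.

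Unfolded proteins in the endoplasmic reticulum are sensed by the membrane proteins IRE1 (gene ERN1), PERK (EIF2AK3) and ATF6. ATF6 and spliced XBP1 raise the chaperones, of which BiP (HSPA5) is the most used marker. PERK and the other eIF2 alpha kinases slow protein synthesis while the mRNA for ATF4 is translated better, and ATF4 then raises genes of amino acid supply such as ASNS, PSAT1, PHGDH and MTHFD2, together with DDIT3 (CHOP), TRIB3, CHAC1 and PPP1R15A (GADD34), which brings phosphatase back to eIF2 alpha. The arrays read mRNA, so the splicing of XBP1, the cleavage of ATF6 and the phosphorylation of eIF2 alpha were not measured.

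Some of the promoters hold DNA elements known for the different arms. RefSeq promoter windows on GRCh38.p14, from 250 bases before to 50 bases after the transcription start, were found for 31 of the 34 genes and were scanned on both strands, beside 27305 genes in all. The ER stress element (CCAAT, 9 bases, CCACG) was in 7 of the 31 (22.6%, against 0.0916% of all genes), namely HSPA5, HSP90B1, CALR, CANX, PDIA6, XBP1 and SERP1. The ER stress element II (ATTGG, 1 base, CCACG) was in HERPUD1, SDF2L1 and HYOU1, 3 of 31 (9.68%, against 0.0696%). TGATGNAAN, the core of the composite site bound by ATF4 with C/EBP proteins, was in ASNS, CHAC1 and HERPUD1, also 3 of 31 (9.68%, against 4.45%). TGACGTG, a core of the UPR element, was in HYOU1 alone (3.23%, against 2.4%). The parts alone are common: CCAAT was in 24 members (77.4%, against 39.7% of all genes), and so was CCACG (77.4%, against 42.1%). The palindromic estrogen response element (GGTCA, 3 bases, TGACC) was in 0 of 31, against 0.0732% of all genes. Of the 31 windows, 12 held at least 1 of the ER stress element, the ER stress element II, the ATF4 site and the UPR element, and 19 held none. A match is a description of the letters, and no match says only that these letters are not in this window.

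The 250 bases upstream of the start are printed for 5 genes, to set a chaperone with an ER stress element (HSPA5) and a chaperone with the ER stress element II (HYOU1) beside a gene with sites of both kinds (HERPUD1), an ATF4 target (ASNS) and the member with the largest 4OHT response (PPP1R15A). Capitals mark the matched elements on either strand, and each run reads 5′ to 3′ on the gene's own strand. HSPA5 lies at chr9:125241344-125241593 (minus strand), HYOU1 at chr11:119057206-119057455 (minus strand), HERPUD1 at chr16:56931892-56932141 (plus strand), ASNS at chr7:97872409-97872658 (minus strand) and PPP1R15A at chr19:48872171-48872420 (plus strand).
HSPA5: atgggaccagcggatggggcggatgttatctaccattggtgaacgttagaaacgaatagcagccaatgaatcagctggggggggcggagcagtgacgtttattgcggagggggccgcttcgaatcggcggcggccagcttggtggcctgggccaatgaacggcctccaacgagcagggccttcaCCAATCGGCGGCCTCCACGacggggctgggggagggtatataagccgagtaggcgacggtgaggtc
HYOU1: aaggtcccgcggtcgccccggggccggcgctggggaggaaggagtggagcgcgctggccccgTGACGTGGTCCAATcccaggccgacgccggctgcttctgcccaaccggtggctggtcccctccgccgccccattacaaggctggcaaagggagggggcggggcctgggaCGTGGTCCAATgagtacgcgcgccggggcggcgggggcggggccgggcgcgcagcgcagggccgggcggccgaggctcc
HERPUD1: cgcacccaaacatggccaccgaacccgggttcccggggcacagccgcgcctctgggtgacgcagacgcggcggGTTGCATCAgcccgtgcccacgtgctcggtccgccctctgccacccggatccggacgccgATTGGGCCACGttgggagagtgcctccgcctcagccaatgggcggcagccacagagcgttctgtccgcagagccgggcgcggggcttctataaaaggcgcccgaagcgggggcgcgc
ASNS: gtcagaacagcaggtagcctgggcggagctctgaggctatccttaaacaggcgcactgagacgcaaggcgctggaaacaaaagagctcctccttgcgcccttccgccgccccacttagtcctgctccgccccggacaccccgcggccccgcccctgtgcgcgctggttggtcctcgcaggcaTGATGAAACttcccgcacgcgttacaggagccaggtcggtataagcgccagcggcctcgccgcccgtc
PPP1R15A: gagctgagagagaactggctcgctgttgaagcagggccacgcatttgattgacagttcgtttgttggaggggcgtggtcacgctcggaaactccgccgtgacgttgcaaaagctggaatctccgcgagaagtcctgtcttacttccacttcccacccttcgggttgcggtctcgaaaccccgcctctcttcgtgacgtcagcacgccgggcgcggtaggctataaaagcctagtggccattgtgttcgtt
In HSPA5 the capitals are the ER stress element at -66 to -48 from the start. HYOU1 holds the ER stress element II on the opposite strand at -185 to -175 and at -79 to -69, and the capitals of the upstream copy begin with the overlapping UPR element at -188 to -182. In HERPUD1 the ATF4 site lies at -177 to -169 on the opposite strand and the ER stress element II at -117 to -107. ASNS has its ATF4 site at -68 to -60. The PPP1R15A window held none of the full elements.

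The deposited values were log2 intensities from robust multi-array averaging, with array medians of 7.553 to 7.636 in PEO1 and 7.996 to 8.08 in PEO4, so changes were tested within a line. The lowest correlation between 2 arrays of a group was 0.9968 in PEO1 and 0.9923 in PEO4, and the median standard error of a change between groups was 0.063 and 0.071 on the log2 scale. Levels of different probe sets cannot be set against each other, so the markers are given as ranges over the arrays. Of the Müllerian epithelial markers, PAX8 was 10.8 to 11.13 in PEO1 and 11.68 to 12.23 in PEO4, EPCAM 12.07 to 12.5 and 12.93 to 13.35, and MECOM 8.14 to 8.97 and 4.45 to 4.87. Of the leukocyte genes, PTPRC was 2.9 to 3.38 and 3.86 to 4.71, MS4A1 5.41 to 6.07 and 5.6 to 6.22, CD14 6.28 to 6.81 and 5.77 to 6.38, and CD3E 6.71 to 7.3 and 7.15 to 7.55, and their part in the results was not tested. The difference between the 3′ and 5′ ACTB control probe sets, a sign of RNA breakdown where it is high, was -0.254 to 0.142 in PEO1. In PEO4 it was 0.242 to 0.573 with vehicle, 0.68 to 1.019 with E2, 0.471 to 0.654 with 4OHT and 0.482 to 1.736 with 4OHT and E2, and 2 PEO4 arrays stood apart, ICI replicate 1 at 3.414 and 0 h replicate 4 at 2.284. Results on those groups are given with and without these arrays where that changes them.

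**Figure D1:**
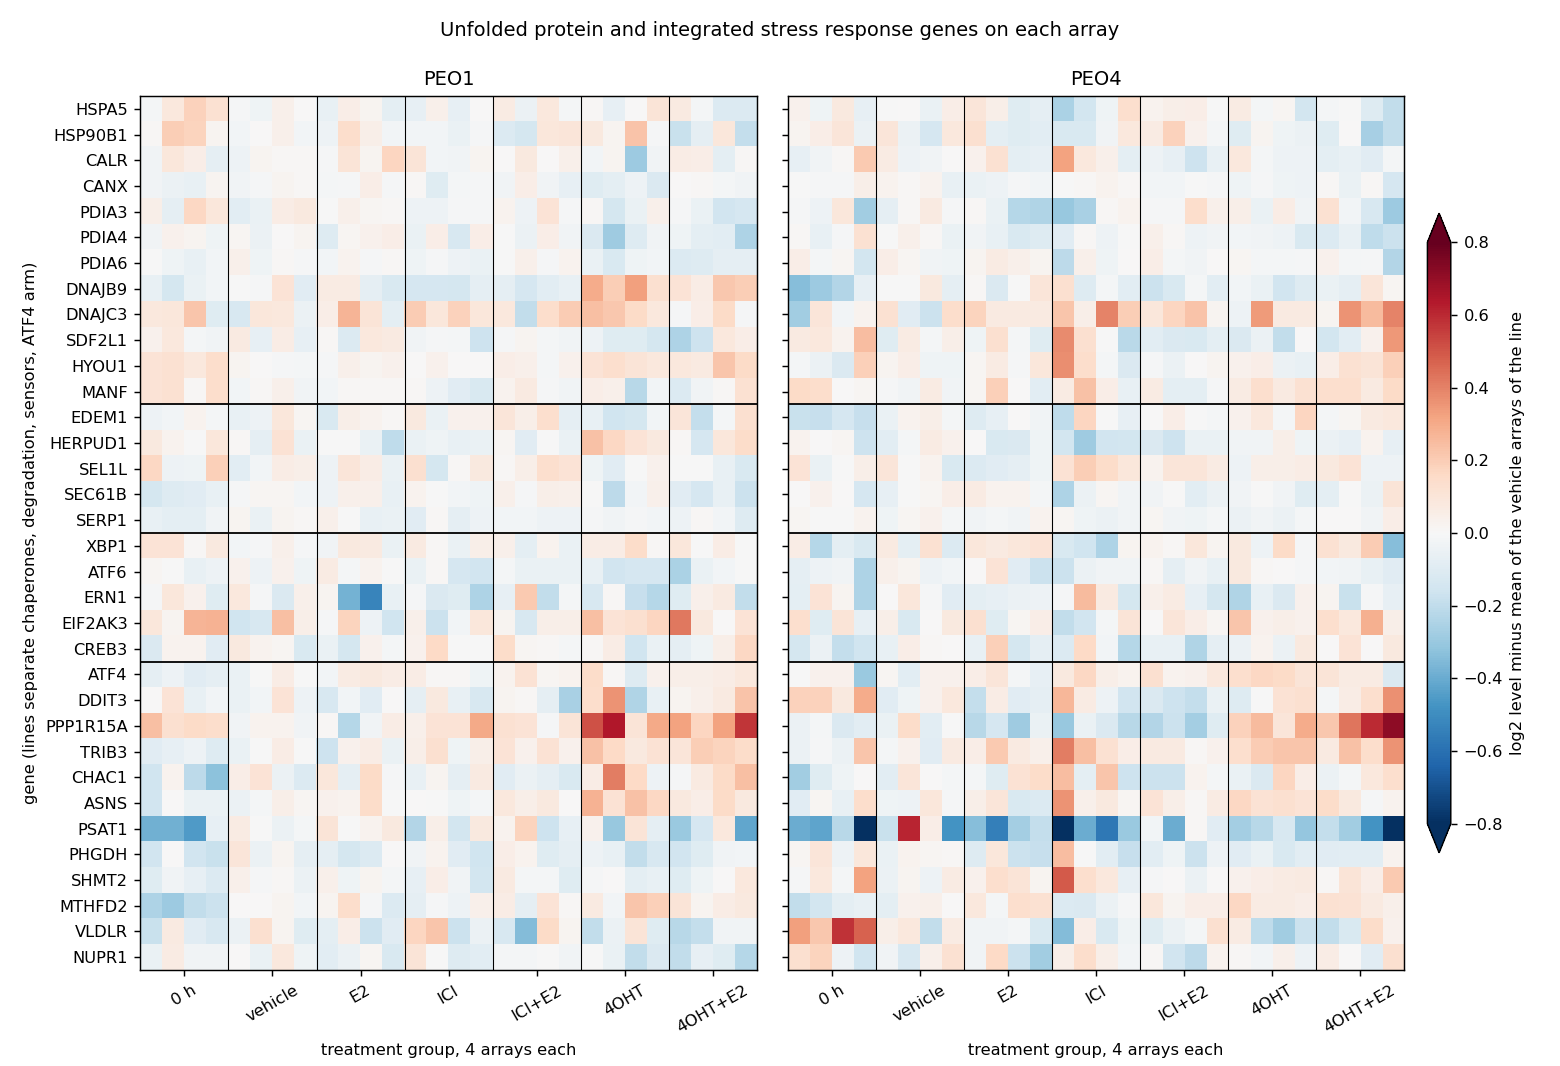
Log2 level of each of the 34 genes on each array (columns, grouped by treatment) minus that gene's mean over the vehicle arrays of the same line, with genes ordered by role (rows; the colour scale is capped at 0.8 in either direction). PPP1R15A is above its vehicle mean on all 8 arrays with 4OHT in each line, and in PEO1 DNAJB9 and HYOU1 are above theirs on all 8 too, while HSPA5 lies on both sides of its mean in PEO1.

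In PEO1, 4OHT alone raised PPP1R15A, DNAJB9, ASNS and HYOU1 over vehicle after 3 h, while HSPA5 and DDIT3 did not pass the test. These 4 of the 34 genes (11.8%) passed limma's test at an adjusted p below 0.05, against 6.75% of all 11963 genes in either direction and 1.92% in the higher direction, that of all 4. Of all genes, 230 were higher and 578 lower, a split that became 298 and 272 when the arrays were also quantile normalized, so small shifts are read beside the median change of -0.03 over all genes. The 4 calls were divided evenly between the chaperones (2 of 12) and the ATF4 arm (2 of 12), and neither the degradation genes nor the sensors gave any. Fitted on the vehicle and 4OHT arrays alone, 0 of the 34 passed, and with quantile normalization 7 did, TRIB3, HERPUD1 and MTHFD2 being added.

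PPP1R15A, the stress-induced partner of protein phosphatase that ends the translation block, had the largest change. Its log2 level was 8.42, 8.48, 8.48 and 8.42 on the vehicle arrays and 8.96, 9.09, 8.55 and 8.75 on the 4OHT arrays, a rise of 0.38 ± 0.087 (SE; 95% interval 0.2 to 0.56; n = 4 and 4; limma adjusted p = 0.00805). Every 4OHT array lay above every vehicle array, with replicate C of the 4OHT group nearest to them. DNAJB9, a J-domain co-chaperone of BiP that is a target of XBP1, read 10.01, 10, 10.12 and 9.92 with vehicle and 10.31, 10.21, 10.34 and 10.14 with 4OHT, a rise of 0.24 ± 0.051 (0.13 to 0.34; adjusted p = 0.00575). These groups did not overlap either, and the gap between the lowest 4OHT array and the highest vehicle array was small. The dimmer DNAJB9 probe set gave 0.17 for the same comparison (adjusted p = 0.42 among all probe sets), so the call rests on the brighter probe set, and with the mean of both it ended (adjusted p = 0.102).

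ASNS, asparagine synthetase, a standard ATF4 target, read 10.12, 10.15, 10.21 and 10.18 with vehicle and 10.44, 10.28, 10.4 and 10.33 with 4OHT, a rise of 0.19 ± 0.042 (0.11 to 0.28; adjusted p = 0.00517). No array of either group fell among those of the other. HYOU1, a chaperone of the HSP70 family with a pair of ER stress elements II in its promoter, moved from 10.38, 10.36, 10.35 and 10.34 to 10.47, 10.49, 10.46 and 10.44, a rise of 0.11 ± 0.033 (adjusted p = 0.0467). That is the smallest of the 4 changes, with arrays that barely spread within a group, and it was lost without any 1 of the 8 arrays (adjusted p of 0.0558 to 0.119).

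The next ATF4-arm gene, TRIB3, a pseudokinase induced by ATF4 and CHOP, read 9.29, 9.34, 9.4 and 9.34 with vehicle and 9.58, 9.5, 9.42 and 9.46 with 4OHT. The groups did not overlap, and the change of 0.15 ± 0.046 missed the threshold (adjusted p = 0.0513). HERPUD1, which serves degradation at the reticulum and carries both kinds of element, was 0.15 (0.04 to 0.26; adjusted p = 0.0959). Of the classical markers, HSPA5 differed by 0.01 (-0.09 to 0.12), DDIT3 by 0.05 (-0.12 to 0.23), ATF4 mRNA by 0.02 (-0.06 to 0.1), XBP1 by 0.07 (-0.02 to 0.16) and CHAC1, a glutathione-degrading enzyme, by 0.15 (-0.01 to 0.31; adjusted p = 0.276). DDIT3 on the 4OHT arrays was 8.47, 8.69, 8.09 and 8.27, on both sides of its vehicle range of 8.28 to 8.44. Without adjustment 12 of the 34 had p below 0.05. The share of all genes at that threshold is not given, so the count is not read as more change among the members. The median change was -0.038 over the chaperones and 0.036 over the ATF4 arm (7 of 12 above 0), beside -0.032 over all genes.

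With E2 present, 4OHT raised PPP1R15A, TRIB3, HYOU1 and DNAJB9 in PEO1, compared with E2 alone, and PDIA6 fell. That made 5 of 34 genes (14.7%), against 12.7% of all genes, so the share called was near that of the array as a whole; 4 of the 5 were higher (4.26% of all genes). Over all genes 510 were higher and 1015 lower, or 667 and 554 after quantile normalization.

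PPP1R15A was 8.46, 8.22, 8.42 and 8.51 with E2 and 8.77, 8.62, 8.77 and 9.02 with 4OHT and E2, a rise of 0.39 ± 0.087 (adjusted p = 0.00352) without overlap. For TRIB3 the arrays read 9.18, 9.38, 9.4 and 9.29 against 9.44, 9.54, 9.52 and 9.49, again without overlap, a rise of 0.18 ± 0.046 (adjusted p = 0.00886). HYOU1 read 10.35, 10.4, 10.38 and 10.39 against 10.44, 10.43, 10.58 and 10.51, a rise of 0.11 (0.04 to 0.18; adjusted p = 0.0247) that was lost without E2 replicate A or C or 4OHT with E2 replicate C or D (adjusted p of 0.0588 to 0.0754). PPP1R15A, TRIB3 and HYOU1 were thus each higher on all 4 arrays with the antiestrogen.

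DNAJB9 rose by 0.16 (0.06 to 0.27; adjusted p = 0.0376), from 10.08, 10.08, 9.94 and 9.89 to 10.12, 10.07, 10.23 and 10.21, and here the groups overlapped. That call was lost without E2 replicate C or D, without 4OHT with E2 replicate A, C or D (adjusted p of 0.0505 to 0.127) and with the mean of its probe sets (adjusted p = 0.252). PDIA6, a protein disulfide isomerase, fell from 12.82, 12.87, 12.83 and 12.85 to 12.73, 12.74, 12.77 and 12.77, a change of -0.09 ± 0.03 (adjusted p = 0.0471) without overlap. PDIA6 was the only member called lower under an antiestrogen, its change shrank to -0.06 after quantile normalization (adjusted p = 0.24), it was lost without any 1 of the 8 arrays except 4OHT with E2 replicate C (adjusted p of 0.0527 to 0.131), and its probe set is of a kind (x_at) that may hold probes matching other genes. In the chaperone arm 2 of the 12 estimates, those of HYOU1 and DNAJB9, lay above 0 (median -0.051, beside -0.014 over all genes).

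ASNS did not pass the test with E2 present. It read 10.2, 10.19, 10.31 and 10.16 with E2 and 10.24, 10.22, 10.32 and 10.24 with 4OHT and E2, a difference of 0.04 (-0.05 to 0.12; adjusted p = 0.572). The difference between its 4OHT effects with and without E2 was -0.15 ± 0.059 (adjusted p = 0.431), so unlike effects were not shown. No member had a 4OHT by E2 interaction in PEO1, against 0.669% of all genes, and 3 had one at an unadjusted p below 0.05.

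**Figure D2:**
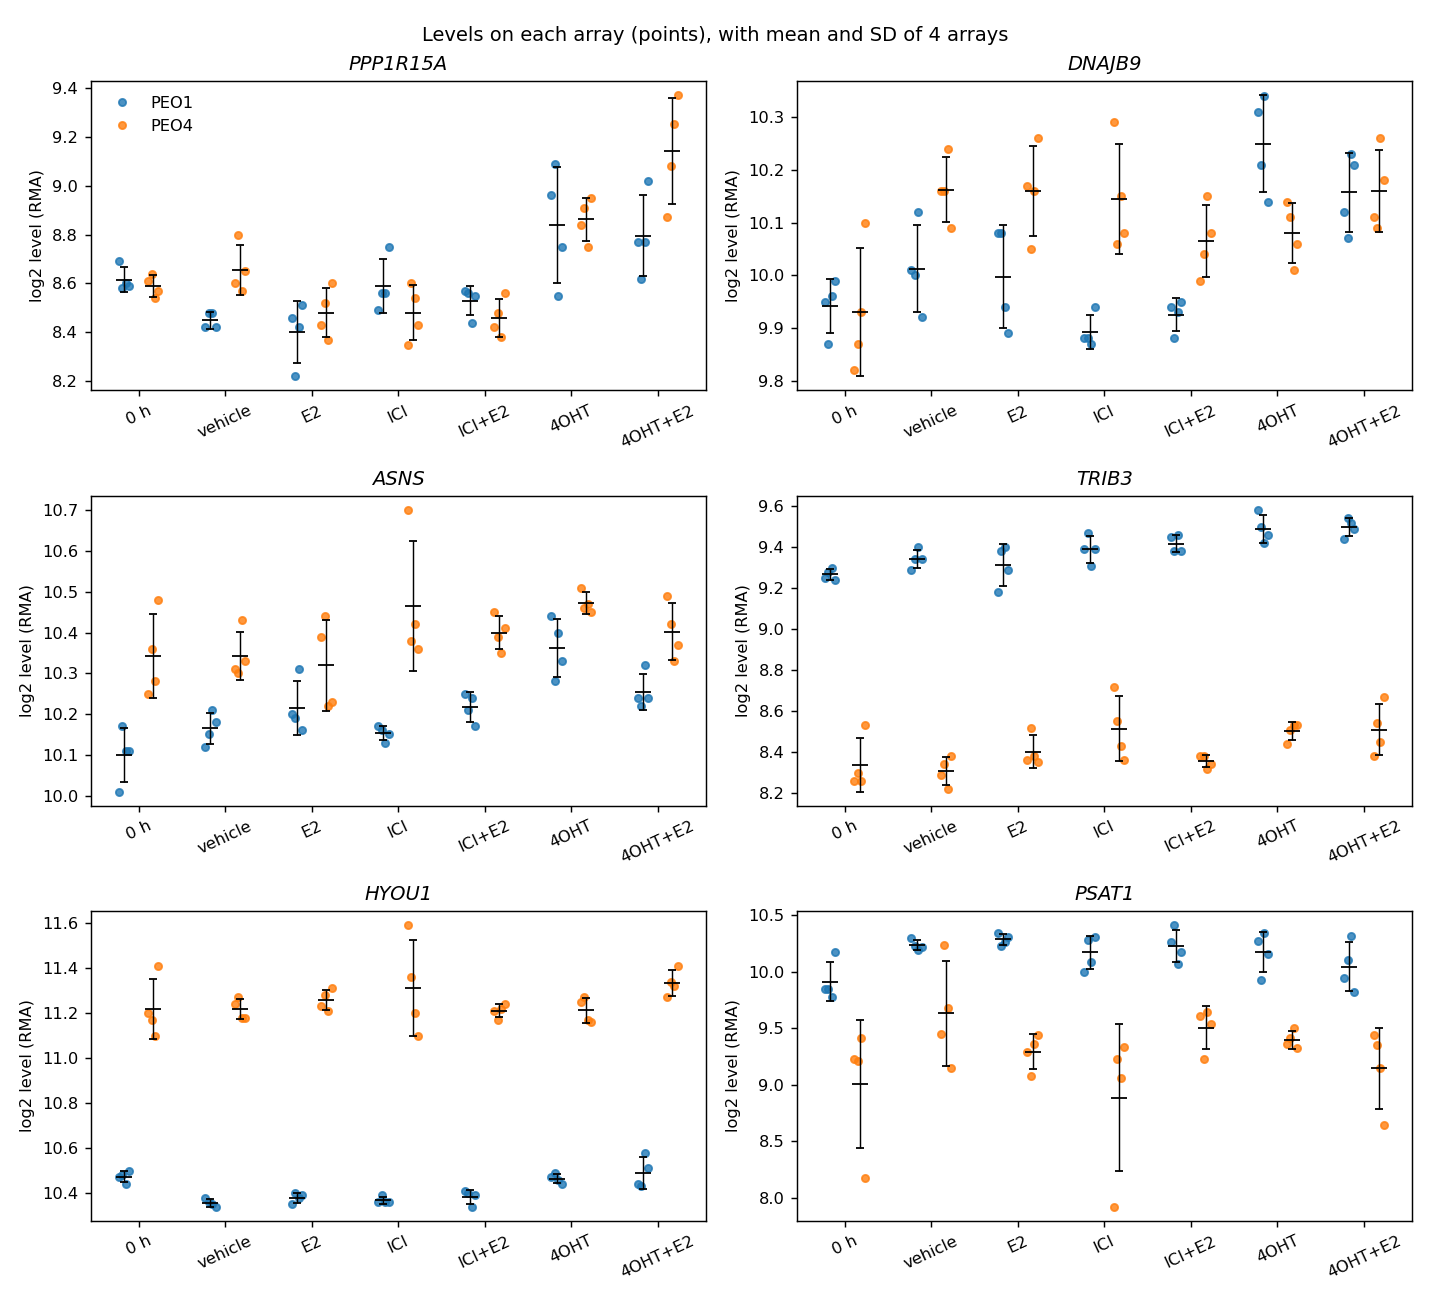
Log2 level on every array for PPP1R15A, DNAJB9, ASNS, TRIB3, HYOU1 and PSAT1, by treatment group and line, with 1 point per array and bars at the mean and SD of 4 arrays. PPP1R15A on the PEO4 arrays with 4OHT and E2 (8.87 to 9.37) lies above all E2 arrays (8.37 to 8.6), and DNAJB9 is raised with 4OHT in PEO1 but not in PEO4.

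In PEO4, PPP1R15A was the only member called with 4OHT against vehicle or E2, and it was called in the presence of E2. With 4OHT alone 0 of the 34 genes passed limma's test, against 5.53% of all genes; 3 members had an unadjusted p below 0.05, and array weights, quantile normalization, the 2 groups fitted alone, or leaving out both PEO4 arrays that stood apart called 1 to 3. With 4OHT and E2 against E2, 1 member passed (2.94%, against 5.73% of all genes).

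PPP1R15A read 8.43, 8.52, 8.37 and 8.6 with E2 and 8.87, 9.08, 9.25 and 9.37 with 4OHT and E2, a rise of 0.66 ± 0.079 (0.5 to 0.83; adjusted p = 1.18e-06), or 1.58-fold. This was the largest change that passed the test for any member under an antiestrogen against vehicle or E2, and the groups were separated by more than the width of the E2 group. The ACTB 3′ to 5′ difference was also highest on replicates 3 and 4 of the 4OHT with E2 group (1.067 and 1.736), the arrays with the highest PPP1R15A, and its part in the result was not tested; without replicate 4 the rise was 0.59 (adjusted p = 9.17e-06). The other PPP1R15A probe set gave 0.72 (adjusted p = 1.04e-06).

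Against vehicle, 4OHT alone left PPP1R15A at 8.84, 8.91, 8.75 and 8.95 beside 8.6, 8.8, 8.57 and 8.65, a difference of 0.21 (0.04 to 0.37; adjusted p = 0.135) with overlapping arrays. The difference between the effects with and without E2 was 0.45 ± 0.112 (0.22 to 0.68) and missed the threshold (adjusted p = 0.0579), and it passed in 6 alternatives (adjusted p of 0.0233 to 0.0466) and without E2 replicate 4 (0.044) or 4OHT with E2 replicate 1 (0.00384). E2 alone gave PPP1R15A -0.17 (-0.34 to -0.01; adjusted p = 0.492). TRIB3 was 8.29, 8.34, 8.22 and 8.38 with vehicle and 8.44, 8.51, 8.53 and 8.53 with 4OHT, which did not overlap, a difference of 0.2 (0.05 to 0.34; adjusted p = 0.104).

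For ASNS the PEO4 difference with 4OHT was 0.13 (-0.01 to 0.26; adjusted p = 0.291), with 10.31, 10.3, 10.43 and 10.33 against 10.51, 10.46, 10.47 and 10.45 and no overlap. HSPA5 was 13.05, 13.06, 13 and 13.11 with vehicle and 13.12, 13.04, 13.07 and 12.91 with 4OHT, a difference of -0.02 (-0.15 to 0.11). DDIT3 differed by 0.04 (-0.13 to 0.2) with 4OHT alone and by 0.21 (0.05 to 0.38; adjusted p = 0.15) with E2 present. The median change in the ATF4 arm was 0.046 without E2 (8 of 12 above 0) and 0.033 with it (11 of 12 above 0), beside -0.002 and -0.001 over all genes, and the chaperones had -0.014 and -0.006. Of that arm only PPP1R15A passed, with E2 present, and the share of all genes above 0 is not given. A dimmer probe set of the chaperone gene CALR fell with 4OHT alone (-0.28; adjusted p = 0.0476 among all probe sets), while the brighter one used here did not pass.

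**Figure D3:**
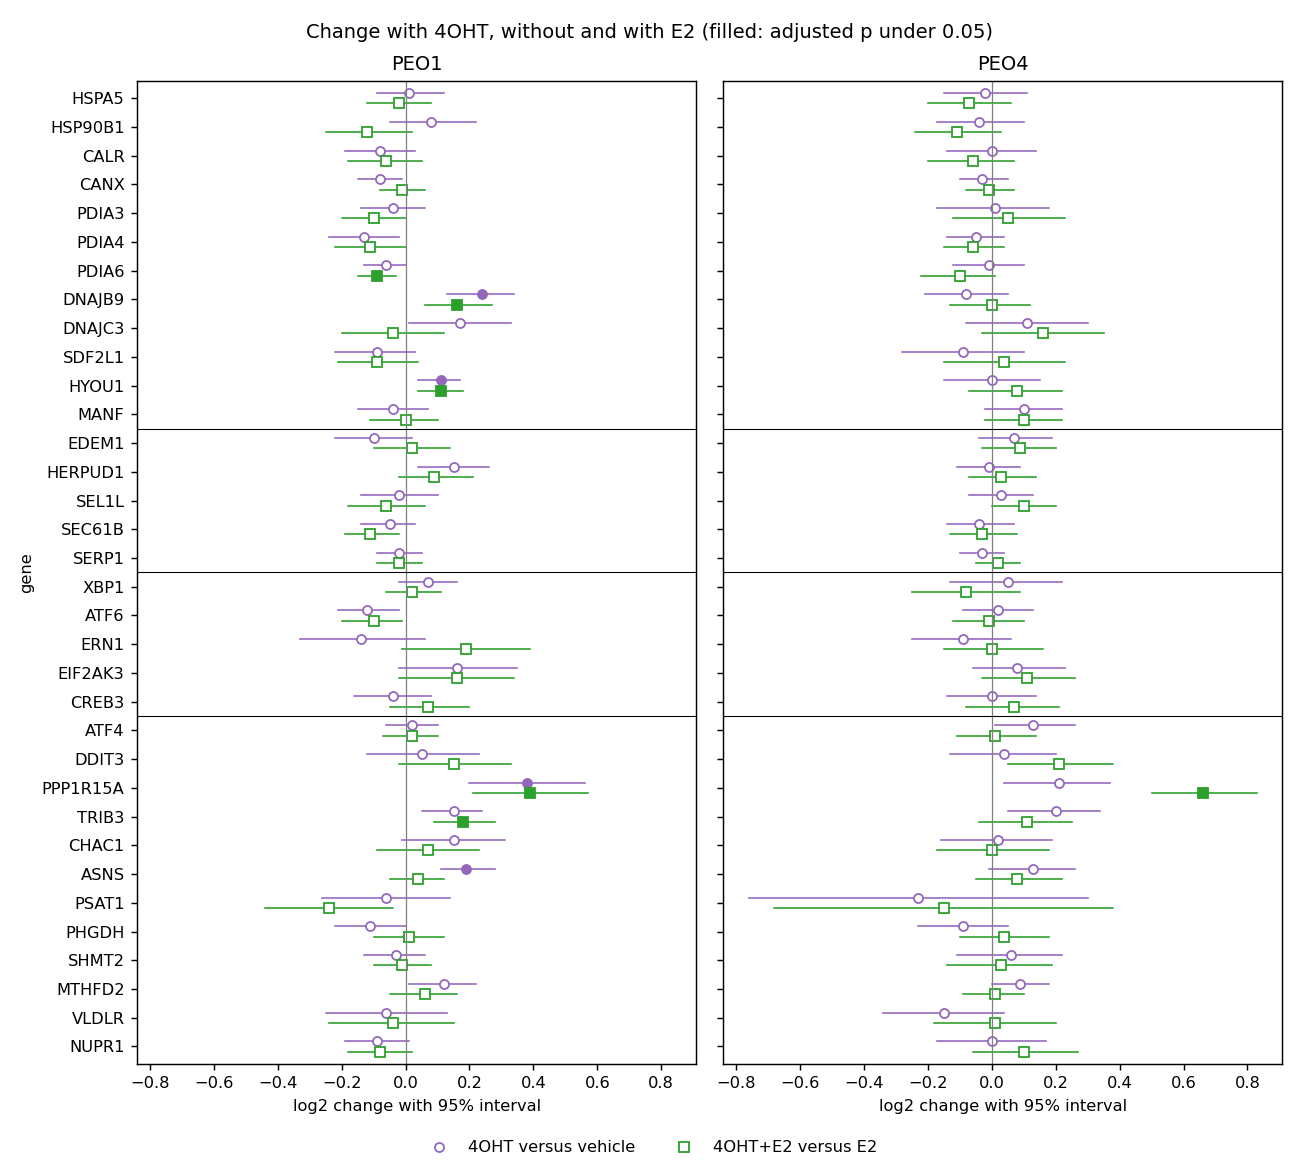
Log2 change with 4OHT for each of the 34 genes, without E2 (4OHT minus vehicle) and with E2 (4OHT and E2 minus E2), in PEO1 and PEO4; points are limma estimates, bars 95% intervals and filled points adjusted p below 0.05. The filled points are PPP1R15A, DNAJB9, ASNS, HYOU1, TRIB3 and PDIA6 in PEO1 and PPP1R15A (0.66) in PEO4, and the HSPA5 intervals span 0 in all 4 comparisons.

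The response to 4OHT could be set beside itself in comparisons that share no array. In PEO1 the changes without and with E2 had the same sign for 27 of the 34 genes (79.4%, against 70.4% of all genes), and Pearson's r across the genes was 0.66 (Spearman 0.53; 0.62 over all genes). In PEO4 the sign was the same for 22 (64.7%, against 66.4%), with r of 0.59 (Spearman 0.57; 0.58 over all genes). Without PPP1R15A, r was 0.53 in each line. Between the lines the sign was the same for 22 without E2 (64.7%, against 56.1%), with r of 0.54 (Spearman 0.51; 0.34 over all genes; 0.44 without PPP1R15A). With E2 it was the same for 23 (67.6%, against 58.6%), with r of 0.70 (Spearman 0.49; 0.49 over all genes; 0.51 without PPP1R15A). These are descriptions across genes, which are not independent and share the arrays of each comparison.

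The antiestrogens differ in structure, ICI being a steroid with a long side chain and 4OHT a triphenylethylene, and they were given at the same dose for the same time. Against ICI, 4OHT gave higher DNAJB9, ASNS and HERPUD1 in PEO1 and higher PPP1R15A in PEO4. In PEO1 that was 3 of 34 genes (8.82%, against 3.74% of all genes in either direction and 1.69% in the higher direction), and in PEO4 1 of 34 (2.94%, against 2.33%). HERPUD1 in PEO4 was higher with 4OHT by 0.17 and missed the threshold (limma adjusted p = 0.069). Without both PEO4 arrays that stood apart it passed, at 0.18 (limma adjusted p = 0.0403).

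DNAJB9 read 9.88, 9.88, 9.87 and 9.94 with ICI in PEO1, below all 4 arrays with 4OHT, and the difference was 0.36 (0.25 to 0.46; adjusted p = 7.85e-05). ASNS read 10.17, 10.16, 10.13 and 10.15 with ICI and differed by 0.21 (adjusted p = 0.00414). HERPUD1 was 11, 11.02, 10.99 and 11 with ICI and 11.29, 11.22, 11.16 and 11.13 with 4OHT, a difference of 0.2 ± 0.054 (adjusted p = 0.0364), lost without any 1 of those arrays but 4OHT replicate D (adjusted p of 0.0602 to 0.0944). For each of the 3 genes, ICI and 4OHT did not overlap.

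PPP1R15A was 8.49, 8.56, 8.56 and 8.75 with ICI in PEO1, and the difference of 0.25 (0.07 to 0.43; adjusted p = 0.11) missed the threshold. In PEO4 it was 8.35, 8.6, 8.54 and 8.43 with ICI, and 4OHT was higher by 0.38 (0.22 to 0.55; adjusted p = 0.00544), or by 0.34 (adjusted p = 0.0293) without both PEO4 arrays that stood apart. HSPA5 gave no difference between the drugs that passed, at 0.03 (-0.07 to 0.14) in PEO1.

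With E2 added to both drugs, DNAJB9 was higher with 4OHT in PEO1 by 0.23 (adjusted p = 0.00828; 0.128 with the mean of its probe sets), as 1 of 34 genes called (2.94%, against 4.19% of all genes). The arrays were 9.94, 9.88, 9.93 and 9.95 with ICI and E2, below all of those with 4OHT and E2. In PEO4 the 1 member called was PPP1R15A (2.94%, against 4.45%), at 8.42, 8.48, 8.38 and 8.56 with ICI and E2, and 4OHT with E2 was higher by 0.68 (0.52 to 0.85; adjusted p = 1.19e-06). DDIT3 in PEO4 was 9.14, 9.09, 9.06 and 9.2 against 9.24, 9.31, 9.39 and 9.62, which did not overlap, and its difference of 0.27 missed the threshold (adjusted p = 0.0578). SEC61B, a subunit of the translocation channel, was 11.63, 11.58, 11.64 and 11.63 against 11.5, 11.46, 11.53 and 11.42 in PEO1, a difference of -0.14 (adjusted p = 0.0502).

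With E2 alone no member passed the test at 3 h in either line. In PEO1, 0 passed limma's test against 2.09% of all genes, with 1 at an unadjusted p below 0.05. In PEO4 the count was also 0, against 2.12%, with 1 unadjusted. The intervals bound what could have been missed: HSPA5 was -0.01 (-0.12 to 0.09) in PEO1 and -0.01 (-0.14 to 0.13) in PEO4, ATF4 was 0.04 (-0.04 to 0.13) and 0.02 (-0.11 to 0.14), and DDIT3 was -0.06 (-0.24 to 0.11) and -0.07 (-0.24 to 0.09). The member changes ran from -0.24 to 0.08 in PEO1 and from -0.34 to 0.1 in PEO4. At the low end in PEO1 was the sensor gene ERN1, the dimmest member, at 5.75, 5.66, 5.55 and 5.71 with vehicle and 5.69, 5.29, 5.14 and 5.61 with E2, which overlapped (adjusted p = 0.304).

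With ICI alone no member passed either. The counts were 0 against 0.134% of all genes in PEO1, with 1 at an unadjusted p below 0.05, and 0 against 0.159% in PEO4, with 7 unadjusted. In PEO4 the array weights of limma, which are estimated from how far an array lies from its group, called 6. HERPUD1 in PEO4 was 10.55, 10.62, 10.7 and 10.67 with vehicle and 10.49, 10.35, 10.48 and 10.49 with ICI, which did not overlap, a difference of -0.18 (adjusted p = 0.094). PSAT1, a serine synthesis enzyme, was 9.45, 10.24, 9.68 and 9.15 with vehicle and 7.92, 9.23, 9.06 and 9.33 with ICI, a difference of -0.75 ± 0.257 (adjusted p = 0.149), or -0.42 ± 0.178 (adjusted p = 0.34) without both PEO4 arrays that stood apart. Its lowest value, 7.92, was on ICI replicate 1, the array with the highest ACTB 3′ to 5′ difference, and the part of RNA breakdown in the remaining difference was not tested.

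ICI with E2 against E2 called 0 members in each line, against 2.5% of all genes in PEO1 (2 members unadjusted) and 2.08% in PEO4 (1 unadjusted). No member had an ICI by E2 interaction, against 0.368% of all genes in PEO1 and 1.13% in PEO4, with 1 and 5 unadjusted. The 4OHT by E2 interaction called 0 in PEO4 too, against 0.635%, with 1 unadjusted.

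**Figure D4:**
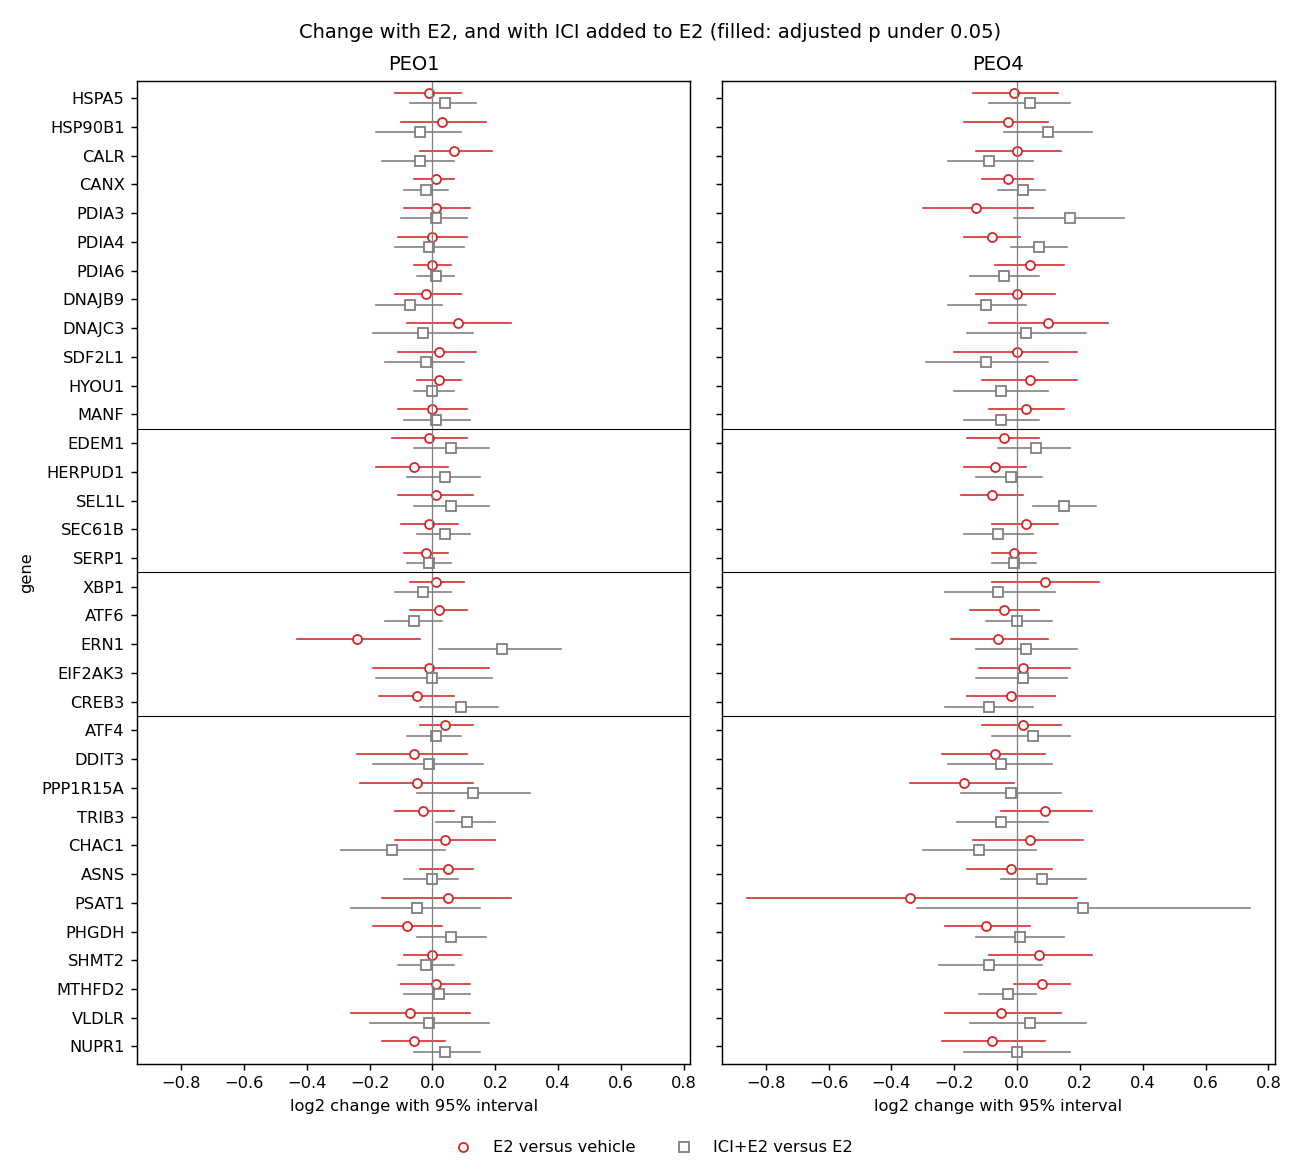
Log2 change for each of the 34 genes with E2 (E2 minus vehicle) and with ICI added to E2 (ICI and E2 minus E2) in PEO1 and PEO4; points are limma estimates, bars 95% intervals and filled points adjusted p below 0.05. No point is filled, the HSPA5 estimates in PEO1 are -0.01 and 0.04, and the widest bars are those of PSAT1 in PEO4.

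The 3 h with vehicle gave more calls among the members than E2 or ICI alone. In PEO1, vehicle cells had higher MTHFD2 and PSAT1 and lower HYOU1 than 0 h cells, 3 of 34 genes (8.82%, against 7.43% of all genes). PEO4 vehicle cells had higher DNAJB9 and lower VLDLR, 2 of 34 (5.88%, against 6.3%). The vehicle groups thus differ from untreated cells at about the share of all genes, and the 0 h cells differ from them in time, in handling and in the ethanol, which cannot be told apart.

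MTHFD2, the mitochondrial folate enzyme under ATF4, was 12.11, 12.07, 12.16 and 12.19 at 0 h and 12.36, 12.36, 12.38 and 12.34 with vehicle in PEO1, a rise of 0.23 ± 0.052 (adjusted p = 0.00584). All vehicle arrays lay above all 0 h arrays. In PEO4 it was 12.17, 12.22, 12.29 and 12.31 against 12.29, 12.4, 12.41 and 12.37, a difference of 0.12 (adjusted p = 0.125) with overlap.

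PSAT1 in PEO1 was 9.85, 9.85, 9.78 and 10.17 at 0 h and 10.3, 10.23, 10.19 and 10.22 with vehicle, a rise of 0.32 ± 0.099 (adjusted p = 0.0441), with 0 h replicate D close under the vehicle arrays. It was lost without any 1 of the other 7 arrays (adjusted p of 0.0717 to 0.159). HYOU1 went the other way, from 10.47, 10.48, 10.44 and 10.5 to the vehicle values given above, a fall of -0.11 ± 0.033 (adjusted p = 0.0307) without overlap, lost without any 1 array but 0 h replicate C (adjusted p of 0.0501 to 0.0816); its 4OHT level of 10.44 to 10.49 was within the range of the untreated cells. PPP1R15A at 0 h was 8.69, 8.58, 8.6 and 8.59 in PEO1, above its vehicle arrays, and that difference of -0.16 did not pass (adjusted p = 0.309). The ATF4 arm as a whole had a median change of 0.074 with 10 of 12 above 0 in PEO1, beside 0.02 over all genes, and the chaperones had -0.036. Of that arm only MTHFD2 and PSAT1 passed, and the share of all genes above 0 is not given.

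In PEO4, VLDLR, a lipoprotein receptor that PERK and ATF4 raise in other cells, was 6.4, 6.29, 6.65 and 6.55 at 0 h and 6.12, 6.16, 5.88 and 6.14 with vehicle, a fall of -0.4 ± 0.091 (adjusted p = 0.00577) without overlap. DNAJB9 was 9.82, 9.87, 9.93 and 10.1 against 10.16, 10.16, 10.24 and 10.09, a rise of 0.23 ± 0.061 (adjusted p = 0.0181) with an overlap that came from 0 h replicate 4, an array that stood apart; without both such arrays the rise was 0.29 (adjusted p = 0.00079). It was lost without 0 h replicate 1 or 2 or vehicle replicate 3 (adjusted p of 0.0632 to 0.0887). EDEM1, which passes misfolded glycoproteins on to degradation, was 9.69, 9.68, 9.73 and 9.68 against 9.81, 9.89, 9.91 and 9.85, a difference of 0.17 that missed the threshold (adjusted p = 0.0714).

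**Figure D5:**
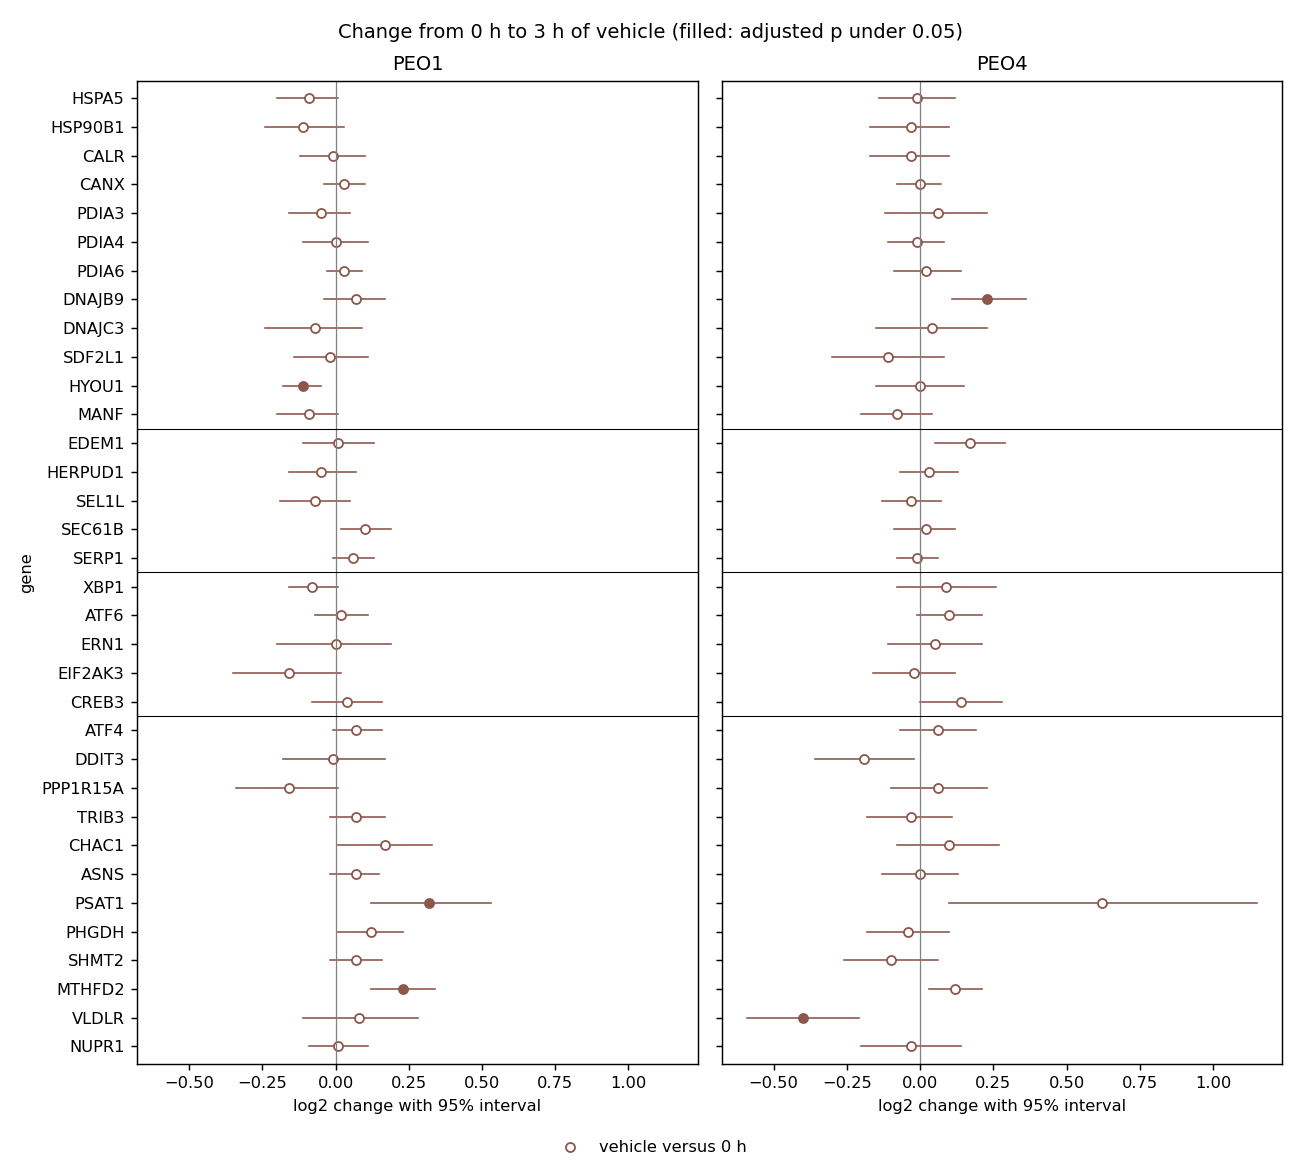
Log2 change from 0 h to 3 h of vehicle for each of the 34 genes in PEO1 and PEO4; points are limma estimates, bars 95% intervals and filled points adjusted p below 0.05. MTHFD2 (0.23), PSAT1 (0.32) and HYOU1 (-0.11) are filled in PEO1, and DNAJB9 (0.23) and VLDLR (-0.4) in PEO4.

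Tests between the lines found 2 members whose response differed. DNAJB9 rose with 4OHT in PEO1 and stood at 10.14, 10.11, 10.01 and 10.06 in PEO4 (change of -0.08, -0.21 to 0.05), and the difference between lines was -0.32 ± 0.079 (-0.47 to -0.16; adjusted p = 0.0269), as 1 of 34 genes (2.94%, against 1.26% of all genes). That difference was lost with the mean of its probe sets (adjusted p = 0.227) or without any 1 of 6 arrays (adjusted p of 0.0501 to 0.0878): vehicle B or D or 4OHT C of PEO1, or vehicle 2 or 3 or 4OHT 3 of PEO4. VLDLR fell from 0 h to vehicle in PEO4 and read 6, 6.25, 6.09 and 6.05 against 6.13, 6.31, 6.2 and 6.08 in PEO1, and its difference was -0.48 ± 0.133 (adjusted p = 0.0363), again 1 of 34 (2.94%, against 2.39%). It was lost after quantile normalization (adjusted p = 0.0768) and without both PEO4 arrays that stood apart (adjusted p = 0.0577), as well as without any 1 of 8 arrays (adjusted p of 0.0638 to 0.123): vehicle B or C or 0 h A, C or D of PEO1, or 0 h 3 or 4 or vehicle 3 of PEO4. For E2 and for ICI 0 members differed between the lines, against 0.493% and 0.1% of all genes, with 0 and 3 at an unadjusted p below 0.05. PPP1R15A did not differ between the lines with 4OHT alone against vehicle by a passing amount (-0.18, -0.42 to 0.07, adjusted p = 0.516). The 4OHT effect with E2 present was not tested between the lines.

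A test of any difference over the 6 groups at 3 h called 6 members in PEO1 (17.6%, against 14.5% of all genes) and 2 in PEO4 (5.88%, against 10.4%). In PEO1 these were DNAJB9 (moderated F of 14.6; adjusted p = 4.39e-05), PPP1R15A (0.002), ASNS (0.00844), HYOU1 (0.0115), TRIB3 (0.0182) and HERPUD1 (0.0462), with the adjusted p in parentheses. HERPUD1 was lost without any 1 of 16 of the 24 arrays (adjusted p up to 0.157). In PEO4 they were PPP1R15A (F of 24; adjusted p = 5.09e-07) and SEL1L (adjusted p = 0.0491), the scaffold of the degradation complex, whose arrays ran from 10.64 to 10.86 with vehicle and from 10.85 to 10.96 with ICI. The SEL1L call was lost after quantile normalization (adjusted p = 0.0856), with the replicate block (0.0667), without both arrays that stood apart (0.0501) and without any 1 of 17 of the 24 arrays (up to 0.113).

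Beyond the 34 genes, further genes of the same pathways were read from lists chosen with earlier results of these data known. The shares called in these lists are thus descriptions, and whether they exceed those of all genes was not tested. Of 39 further genes of the ATF4 and amino acid response, 34 were measured, and 4OHT raised 6 and lowered 3 of them in PEO1 (26.5%, beside 6.75% of all genes), and with E2 present raised 7 and lowered 6 (38.2%, beside 12.7%). After quantile normalization the latter count was 9 higher and 3 lower, the falls of CEBPB, ALDH18A1 and EIF2AK2 being lost, and on the groups compared alone it was 3 and 3. In PEO4 it raised 3 and lowered 2 (14.7%, beside 5.53%), and with E2 raised 7 and lowered 3 (29.4%, beside 5.73%). Array weights made the former 9 higher and 3 lower, and the latter fell to between 4 and 6 calls in all without E2 replicate 3 or 4 or 4OHT with E2 replicate 2 or 4. ATF3, a stress-induced transcription factor, rose by 0.85 ± 0.111 (adjusted p = 1.63e-05) in PEO1 and by 0.5 ± 0.087 (adjusted p = 0.000541) in PEO4. TNFRSF10B, a death receptor that CHOP raises, rose by 0.38 and 0.4. CTH, an enzyme of cysteine synthesis, was higher with 4OHT than with ICI by 0.33 in PEO1, and CEBPG, a partner of ATF4, rose by 0.27 in PEO4. DDIT4, an inhibitor of mTORC1, changed by -0.41 in PEO1 and by -0.23 in PEO4, where the call was lost in 6 of 16 alternatives. With E2 present its change was -0.38 in each line. With 4OHT alone TXNIP, an inhibitor of thioredoxin, fell by 0.41 in PEO1 and 0.44 in PEO4. For 4OHT with E2 against E2 in PEO1, SLC38A2 had the smallest adjusted p of this list, with a rise of 0.35 (limma adjusted p = 1.19e-06).

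The list gave its own results in the other comparisons. E2 raised 3 and lowered 1 of these 34 genes in each line, beside 2.09% of all genes in PEO1 and 2.12% in PEO4. Among them were STC2, a secreted glycoprotein (0.42, adjusted p = 3.63e-05 in PEO1, and 0.46, adjusted p = 0.000813 in PEO4), and the amino acid transporter gene SLC7A5 (0.38 and 0.31). ICI with E2 against E2 lowered both, STC2 by -0.55 and -0.48 and SLC7A5 by -0.28 and -0.25, the PEO4 call on SLC7A5 being lost without E2 replicate 2. SLC38A2 went the other way, at -0.19 with E2 alone in PEO1 and 0.27 with ICI and E2 against E2. In PEO4 it was 0.25 with ICI and E2 against E2, a call lost in 8 of 16 alternatives. In PEO4, E2 alone also raised TNFRSF10B by 0.36 and changed TXNIP by -0.24. The E2 count in PEO1 became 2 higher and 0 lower without vehicle replicate D or on the groups compared alone. ICI alone called 0, beside 0.134% of all genes in PEO1 and 0.159% in PEO4. It called 5 in PEO4 without ICI replicate 4 or with array weights, and 1 in PEO1 with array weights or with trend and robust variances. From 0 h to vehicle, 9 rose and 2 fell in PEO1, beside 7.43% of all genes. In PEO4, 3 rose and 4 fell, beside 6.3% of all genes, and DDIT4 fell by 1.12. Over the same time TNFRSF10B rose by 0.22 in PEO1 and TXNIP changed by -0.52 in PEO4. CEBPG had the smallest adjusted p of the list in PEO1, with a rise of 0.27 (limma adjusted p = 0.000282), and rose by 0.2 in PEO4. After quantile normalization, or without 0 h replicate C, the PEO1 count was 5 higher and 2 lower, on the groups compared alone it was 6 and 1, and in PEO4 array weights gave 6 and 5.

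Among further genes of protein processing in the reticulum, 37 of 45 were measured, and 0 passed limma's test in any 4OHT comparison against vehicle or E2. Of all genes, 6.75% and 12.7% passed in PEO1 and 5.53% and 5.73% in PEO4, without and with E2. Some alternatives called 1 to 3 of the 37 genes in a comparison. At an unadjusted p below 0.05 there were 9 and 7 in PEO1 and 1 and 3 in PEO4. These counts lack the share of all genes, so they are not read as more change or as a difference between the lines. E2 raised CREB3L2, a membrane-bound transcription factor, in PEO1 by 0.18, and ICI with E2 lowered it by -0.17 against E2. From 0 h to vehicle SSR3 rose by 0.29 in PEO1 and 0.43 in PEO4, and CREB3L2 rose by 0.22 in PEO4. The E2 call on CREB3L2 was lost without vehicle replicate A, B or D or E2 replicate A, B or C, and its ICI with E2 call without any 1 of the 8 arrays or on the groups compared alone. Of 20 genes on a list of heat shock proteins and their regulators 15 were measured. HSPA6, an HSP70 induced under strong stress, rose with 4OHT by 1.63 ± 0.18 (limma adjusted p = 2.34e-06) in PEO1 and by 1.67 ± 0.139 (adjusted p = 8.11e-09) in PEO4. With E2 present the HSPA6 rise was 1.98 and 1.73. In PEO4 the filter on dim genes removed HSPA6, so its calls there were not run with that filter. The other calls on that list under 4OHT were small, with SERPINH1 at -0.16 and HSPD1 at -0.09 in PEO1 and DNAJB1 at 0.16 in PEO4. SERPINH1 was lost after quantile normalization and on the groups compared alone, HSPD1 in these and 5 other alternatives of 15, and DNAJB1 in these and 7 others of 16.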

How the data were processed

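Total RNA of PEO1 and PEO4 cells was hybridised to Affymetrix arrays, 56 in all. The deposited values are log2 intensities per probe set, made by the authors with RMA (robust multi-array averaging) per the submitters' processing notes, whose version is not given in the sources used here; whether the lines were normalized together is not given either. Of 22277 probe sets, 19064 carried 1 gene symbol, 1043 several and 2108 none, leaving out 62 controls. A gene was read from its brightest single-symbol probe set (11963 genes), and probe sets with several symbols were not used. A series of group means was fitted per line in limma 3.58.1 (R 4.3.3), 28 arrays each, with Benjamini-Hochberg adjustment over all genes and a call at an adjusted p below 0.05; intervals are 95%. Line differences were fitted over all arrays. The fit was tested on simulated data. The members, their arms and the further lists were chosen with earlier results of these data known. Every called member is named. Of the called genes of the further lists only some are named, and not always those with the smallest adjusted p. Other members with values on each array were singled out after their values were seen. Counts at an unadjusted p below 0.05 and counts of changes above 0 are given without the share of all genes. They are thus not read as more change among the members or lists. Array number limits the precision. Alternatives were other variance models, filters, probe set rules, normalization, array weights, a replicate block, fewer groups and fewer arrays. Arrays with the same replicate letter or number did not deviate together (mean correlation 0.02 in PEO1 and 0.04 in PEO4; every pair over 0.1 in 0 and 1 of 8 comparisons), so no pairing was assumed. Gene names follow the array annotation, and promoter windows are RefSeq's on GRCh38.p14.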

Additional observations from a re-analysis of the deposited data

Results flagged for a closer look

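Of 140 groups of 4 arrays tested for the called members, 12 held an array far from the other 3, relative to the range of the 4 values. The gap itself can be small on the log2 scale. Chance gives about 1 in 20 groups where these are independent, and here the genes share arrays. In PEO1 these were DNAJB9 with ICI, replicate D (9.94, others 9.87 to 9.88), HYOU1 with ICI, replicate B (10.39, others 10.36), and PPP1R15A with ICI and E2, replicate C (8.44, others 8.55 to 8.57).

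In PEO4, 0 h replicate 4 was low for HERPUD1 (10.47, others 10.64 to 10.66) and PSAT1 (8.17, others 9.21 to 9.41) and high for TRIB3 (8.53, others 8.26 to 8.3). The same array had an ACTB 3′ to 5′ difference of 2.28 (others 0.5 to 0.64), and its part in these values was not tested. ICI replicate 1 of PEO4 had the highest such difference, 3.41 (others 0.52 to 0.92), and ICI replicate A of PEO1 had 0.04 (others -0.16 to -0.13).

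The remaining PEO4 arrays far from their groups were HERPUD1 with ICI, replicate 2 (10.35, others 10.48 to 10.49), HERPUD1 with 4OHT, replicate 3 (10.68, others 10.6 to 10.61), TRIB3 with E2, replicate 2 (8.52, others 8.35 to 8.38), MTHFD2 with 4OHT, replicate 1 (12.53, others 12.42 to 12.43), VLDLR with vehicle, replicate 3 (5.88, others 6.12 to 6.16) and VLDLR with E2, replicate 4 (5.95, others 6.05 to 6.06).

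The lines differed, by a test of the difference, in DNAJB9 with 4OHT against vehicle (PEO4 minus PEO1 -0.32, higher on all 4 PEO1 arrays than on any vehicle array) and in VLDLR from 0 h to vehicle (-0.48, lower on all 4 PEO4 vehicle arrays).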

How the results depend on the processing

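For 25 single results, 326 of 426 alternatives kept the direction and the side of the threshold, 91 were no longer past it and 0 reversed. The rest newly passed, for PPP1R15A results in PEO4 that were not calls. Its 4OHT by E2 interaction stayed uncalled in 14 of 22 alternatives, and its change with 4OHT alone against vehicle in 16 of 17. PPP1R15A in its PEO4 calls and with E2 in PEO1, MTHFD2 in PEO1, VLDLR in PEO4 and DNAJB9 against ICI in PEO1 passed in all that were run. The filter on dim genes removed VLDLR in PEO4 and between the lines, so that alternative was not run for it. HYOU1, PDIA6, PSAT1, HERPUD1 and DNAJB9 (4OHT with E2 against E2) in PEO1 were lost in 6 to 11 of 16. Counts of members called, of 505 alternatives, stayed within 1.5 times in 405, and the rest follow; the cause was not tested beyond the fewer arrays or genes of some settings.

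In PEO1, 4OHT against vehicle (4) became 7 with quantile normalization and 0 with only the groups compared. 4OHT with E2 against E2 (5) became 3 with array weights and 1 with only the groups compared. 4OHT against ICI (3) became 5 with quantile normalization, 5 with array weights and 1 with only the groups compared. 4OHT with E2 against ICI with E2 (1) became 3 with trend and robust variances, 5 with dim genes left out, 2 with the mean of probe sets, 2 with quantile normalization, 3 with array weights and 0 with only the groups compared.

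In PEO4, ICI against vehicle (0) became 6, ICI with E2 against E2 (0) became 1, and 4OHT with E2 against E2 (1) became 2, each with array weights. 4OHT against vehicle (0) became 1 with quantile normalization, 3 with array weights, 1 without both outlying arrays and 1 with only the groups compared. 4OHT against ICI (1) became 2 with trend and robust variances, 3 with dim genes left out, 7 with array weights and 2 without both outlying arrays. 4OHT with E2 against ICI with E2 (1) became 3, 3, 2, 5 and 4 with trend and robust variances, dim genes left out, quantile normalization, array weights and both outlying arrays left out. Vehicle against 0 h (2) became 4 with array weights and 1 with only the groups compared. The 4OHT by E2 interaction (0) became 1 with trend and robust variances, dim genes left out, quantile normalization, the replicate block, array weights or both outlying arrays left out. The test over 6 groups (2) became 1 with quantile normalization, 1 with the replicate block and 13 with array weights.

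Between the lines, vehicle against 0 h (1) became 0 with dim genes left out, quantile normalization or both outlying arrays left out and 2 with array weights, 4OHT (1) became 0 with the mean of probe sets, and ICI (0) became 1 with array weights.

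Leaving out 1 array at a time gave 2 to 4 for 4OHT with E2 against E2, 1 to 3 for 4OHT with E2 against ICI with E2 and 1 to 2 for vehicle against 0 h in PEO1. In PEO4 it gave 0 to 3 for ICI against vehicle, 1 to 3 for 4OHT against ICI, 1 to 2 for 4OHT with E2 against ICI with E2, 1 to 2 for vehicle against 0 h, 0 to 1 for the 4OHT by E2 interaction and 1 to 4 over the 6 groups; between the lines it gave 0 to 1 for 4OHT and 0 to 1 for vehicle against 0 h. With the replicate block, 3 members were called for 4OHT against vehicle and 4 for 4OHT with E2 against E2 in PEO1, and PPP1R15A had an adjusted p of 0.0233 for the PEO4 interaction. The interaction, 6-group, further-list and outlying-array alternatives were chosen after the data were seen.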

Other observations

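Vehicle cells of the lines differed in the level of several members, given as a description because the lines' arrays have unlike medians. PEO4 minus PEO1 was 0.45 in the median over all genes. Beyond that shift, TRIB3 was lower in PEO4 by -1.48 and PSAT1 by -1.05, and ERN1 (0.72) and EIF2AK3 (0.65), the genes of the sensors IRE1 and PERK, were the highest. Of the 34 genes, 2 lay below -1 and 0 above 1, while 10.6% of all genes lay beyond 1 in either direction. TRIB3 read 9.29, 9.34, 9.4 and 9.34 on the PEO1 vehicle arrays and 8.29, 8.34, 8.22 and 8.38 on those of PEO4.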
